A study of Bos taurus with 6 samples.

Results

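Pluripotency genes were followed by their RNA levels in bovine (Bos taurus) day 7 blastocysts that had developed in vitro with or without beta-hydroxybutyrate (BHB), a ketone body made by the liver. A list of 6 genes was chosen by symbol: the transcription factor genes NANOG, POU5F1, KLF17 and SALL4, the co-receptor gene TDGF1 and the RNA-binding protein gene LIN28B. The count table had rows for 5 of the 6 among its 12826 genes, and all 5 passed the filter on low counts. TDGF1, which the RefSeq gene table now names CRIPTO, had no row under either name and was not analysed here. The BHB group comprised 3 libraries and the control group 3 libraries, each made from a pool of in vitro-produced blastocysts of slaughterhouse origin. Neither the BHB concentration and length of exposure nor the number, sex and parents of the pooled embryos is given in the sources used here.

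A blastocyst holds an outer trophectoderm, which forms the placenta, and an inner cell mass, which parts into the pluripotent epiblast and the primitive endoderm. NANOG and POU5F1 (OCT4) encode DNA-binding factors that, in mouse and human embryos, maintain the epiblast. In cattle POU5F1 is also expressed in the trophectoderm at the blastocyst stage, while NANOG is a marker of the inner cell mass and epiblast. KLF17 is a zinc finger factor used as a marker of the epiblast and of naive pluripotent cells in human. SALL4 encodes a zinc finger factor that binds nucleosome remodelling and deacetylase (NuRD) complexes, and LIN28B blocks the maturation of let-7 microRNAs.

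The libraries held 6440732 to 7348949 counts in the BHB group and 7925889 to 8176648 counts in controls. Markers of the trophectoderm (15 of 16 listed genes tested), the epiblast (21 of 31) and the primitive endoderm (14 of 18) were measured. SOX2, a partner of POU5F1, had no row and was not analysed here. Levels are CPM, that is counts scaled to equal library size after TMM adjustment, and a positive log2 fold change with its standard error (SE) is a higher level with BHB. A CPM value is not corrected for gene length, so levels of different genes are not ranked. The labels name no pairs of libraries. For 99.98% of genes, a DESeq2 model returned each p-value of the authors' deposited table when fitted with 3 pairs, BHB 1 with control 1, BHB 2 with control 2 and BHB 3 with control 3. Any other pairing did so for at most 0.398% of genes. Values within these pairs are therefore given beside the comparison of the groups.

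NANOG RNA was lower in each BHB library than in any control library. Its level was 30.7, 33.4 and 51.2 CPM in BHB libraries 1 to 3, against 72.4, 60.7 and 73.4 CPM in control libraries 1 to 3. The level in BHB library 3 stood above the other BHB libraries, and the groups did not overlap. BHB libraries averaged 38.4 ± 11.1 CPM and controls 68.8 ± 7.04 CPM (SD, n = 3 each), a 1.79-fold lower level (log2 fold change -0.84, SE 0.21, 95% interval -1.32 to -0.37). The groups failed to overlap, with BHB lower, in 3.78% of the 12732 genes tested. The pools are bulk samples, so fewer cells that express a gene and less RNA of it per cell cannot be told apart.

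The difference in NANOG did not pass the test over all genes without pairing. Its unadjusted p in edgeR's quasi-likelihood test was 0.0030, rank 13 among 12732 genes, and its adjusted p was 0.999. That test called 0% of genes, with 347 (2.73%) at an unadjusted p under 0.05. Limma-voom also called 0 genes, with 336 at an unadjusted p under 0.05. DESeq2's Wald test called 6 (0.0471%), NANOG not among them (adjusted p = 0.365). Within pairs the level with BHB was 0.426, 0.552 and 0.699 times that of the control in pairs 1, 2 and 3. NANOG was thus lower in 3 of 3 pairs, as were 15.7% of all genes. With the pair in the model, NANOG passed DESeq2's Wald test (log2 fold change -0.87, SE 0.20, adjusted p = 0.0089), which called 0.171% of genes as lower and 0.162% as higher. It did not pass edgeR's test (adjusted p = 0.183) or limma-voom (adjusted p = 0.155) with the pair in the model, and both of these called 0 genes. Their counts at an unadjusted p under 0.05 were 1044 (8.2%) in edgeR and 1065 in limma-voom. In DESeq2's paired fit the call was lost without pair 1 (log2 fold change -0.69, adjusted p = 0.80) and without pair 2 (-0.88, adjusted p = 0.856), and was kept without pair 3 (-1.05, adjusted p = 0.0496). These fits rest on fewer libraries, with an SE of 0.26, 0.29 and 0.27 without pairs 1, 2 and 3, beside 0.20 with all pairs. The authors' deposited table gives NANOG an adjusted p of 0.0021. The model that returned those values tests pair and treatment together, so that p is not one for BHB alone, and 5.04% of genes in the deposited table have an adjusted p under 0.05.

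**Figure D1:**
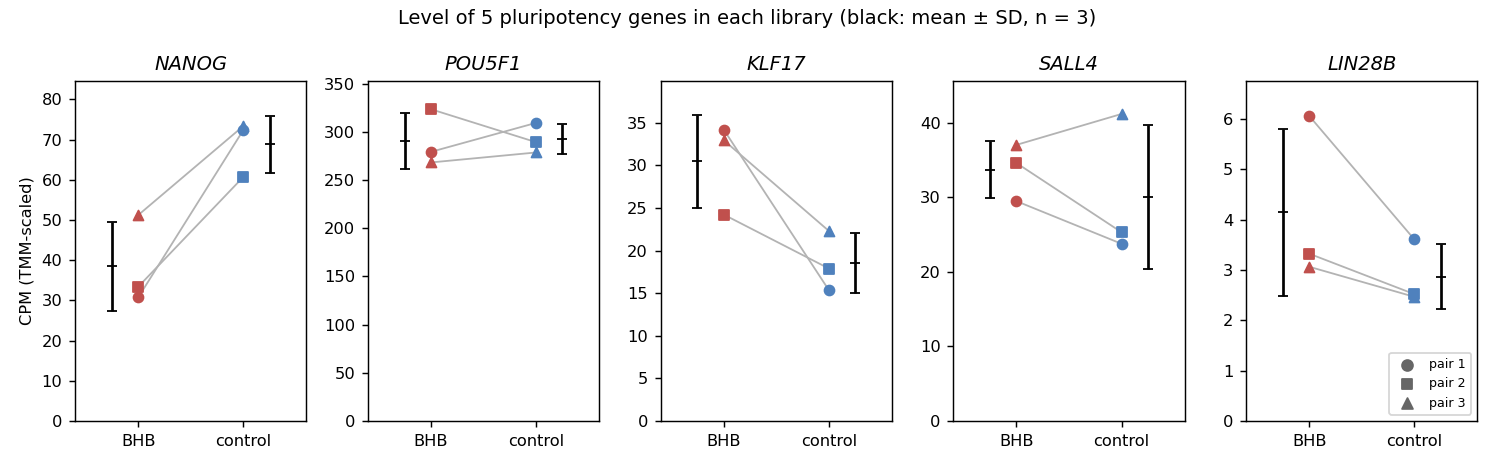
TMM-scaled CPM of NANOG, POU5F1, KLF17, SALL4 and LIN28B in each library (vertical axes from 0, one scale per gene), with BHB on the left and control on the right of each panel. Marker shapes and grey lines show the 3 pairs, and black bars the mean ± SD of 3 libraries; NANOG lies lower and KLF17 higher in the BHB libraries with no overlap, while POU5F1, SALL4 and LIN28B overlap.

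POU5F1, the other core factor of the list, averaged 290.2 ± 29.2 CPM in BHB and 292 ± 15.6 CPM in control libraries (SD, n = 3 each). It was measured at 279, 323 and 268 CPM in BHB libraries 1 to 3, against 309, 289 and 279 CPM in control libraries 1 to 3. The highest and the lowest value were both from BHB libraries. Its log2 fold change was -0.01 (SE 0.13, 95% interval -0.30 to 0.28, adjusted p = 0.999 in edgeR), and it turned positive when libraries were scaled by their totals alone (0.06). The ratio of BHB to control was 0.903, 1.12 and 0.963 in pairs 1 to 3. POU5F1 rested on 1838 to 2372 counts per library, the most of the 5 genes.

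Because the counts of 2 genes in the same library share its depth and scaling, NANOG was also set against POU5F1. There were 11.0, 10.3 and 19.1 NANOG counts per 100 POU5F1 counts in BHB libraries 1 to 3, against 23.4, 21 and 26.3 in control libraries 1 to 3. The groups did not overlap in this ratio, which was 1.81-fold lower with BHB. As POU5F1 differed little between the groups, the ratio largely restates the difference in NANOG. The share of genes whose ratio to POU5F1 separates the groups was not computed. An exact permutation test of 3 against 3 libraries cannot give a two-sided p below 0.1, so no test of the ratio was made.

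KLF17 lay in the opposite direction to NANOG. Its level was 34.2, 24.2 and 33.0 CPM in BHB libraries 1 to 3, against 15.4, 17.9 and 22.3 CPM in control libraries 1 to 3. Each BHB library exceeded each control library, and BHB library 2 lay closest to the controls. BHB libraries averaged 30.5 ± 5.44 CPM and controls 18.5 ± 3.52 CPM (SD, n = 3 each), a 1.64-fold higher level (log2 fold change 0.72, SE 0.22, 95% interval 0.23 to 1.20). The groups failed to overlap, with BHB higher, in 4.06% of genes tested.

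KLF17 did not pass any test over all genes. Its unadjusted p in edgeR was 0.0088, with an adjusted p of 0.999. It was higher in 3 of 3 pairs, as were 14.5% of all genes, at 2.21, 1.35 and 1.47 times the control level in pairs 1 to 3. With the pair in the model its adjusted p was 0.371 in edgeR and 0.38 in DESeq2. In the authors' deposited table its log2 fold change, with the sign turned to BHB over control, is 0.71 and its adjusted p 0.188. Pair 1 held the widest gap for both KLF17 and NANOG.

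**Figure D2:**
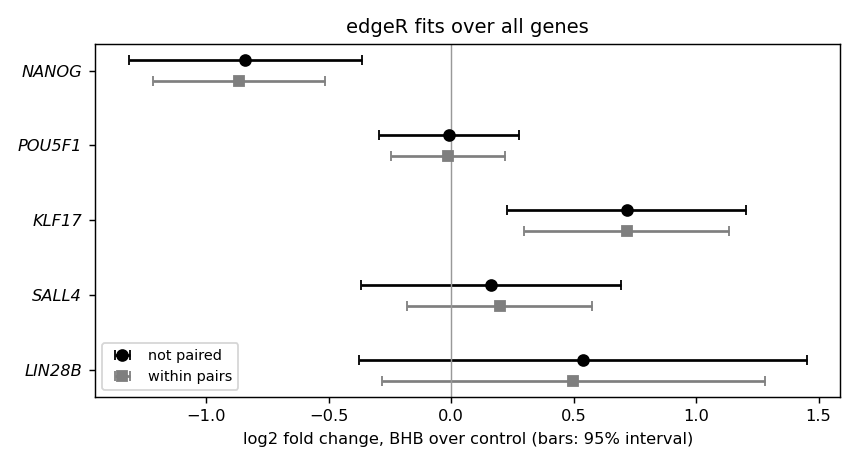
Log2 fold change of BHB over control for the 5 genes (horizontal axis) from edgeR fits over all genes, without pairing (black circles) and with the pair in the model (grey squares), with 95% intervals. The intervals of NANOG lie below 0 and those of KLF17 above 0 before adjustment over all genes, and those of POU5F1, SALL4 and LIN28B span 0.

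KLF17 was also set against NANOG within each library. There were 111, 72.6 and 64.4 KLF17 counts per 100 NANOG counts in BHB libraries 1 to 3, against 21.2, 29.5 and 30.4 in control libraries 1 to 3. This ratio was 3.01-fold higher with BHB. It joins 2 genes that were each noted for their difference, so its size is a description. Each of the 2 separated the groups, in opposite directions, so their ratio could not overlap between groups. KLF17 per 100 POU5F1 counts did overlap, at 12.3, 7.49 and 12.3 in BHB libraries and 4.97, 6.19 and 8.01 in control libraries.

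**Figure D3:**
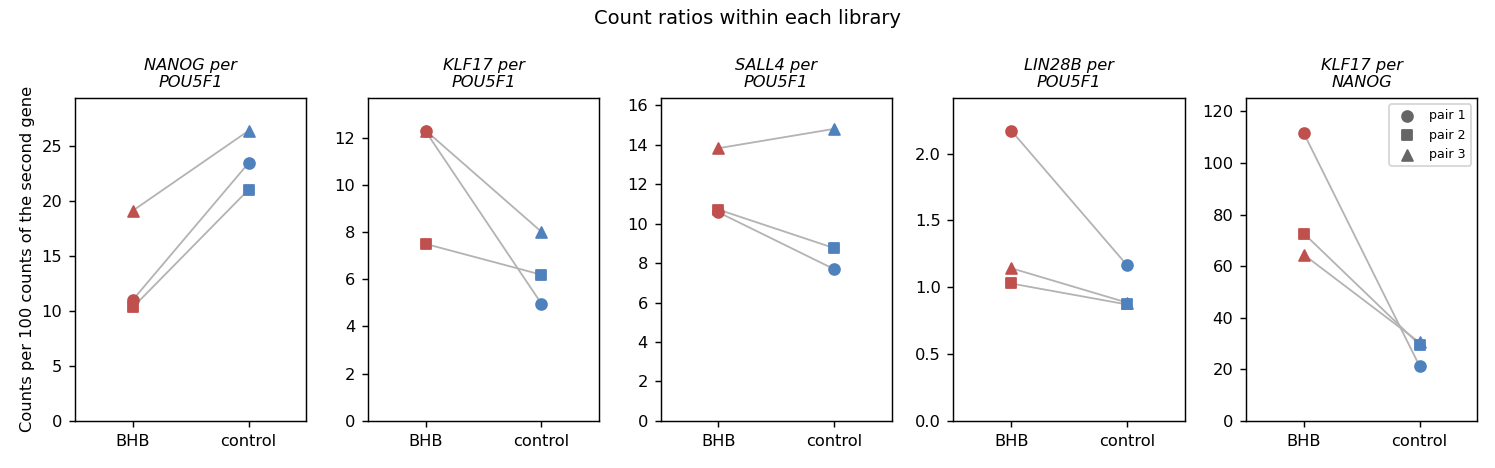
Counts of one gene per 100 counts of a second gene in the same library (vertical axes from 0), BHB left and control right, with shapes and lines for the 3 pairs. NANOG per POU5F1 is at most 19.1 in BHB and at least 21 in control libraries, and KLF17 per NANOG is at least 64.4 in BHB and at most 30.4 in control libraries.

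SALL4 overlapped between the groups. Its level was 29.5, 34.6 and 37.1 CPM in BHB libraries 1 to 3, against 23.8, 25.3 and 41.2 CPM in control libraries 1 to 3. Control library 3 held the highest level of all 6 libraries and controls 1 and 2 the lowest. The log2 fold change was 0.16 (SE 0.24, 95% interval -0.37 to 0.69, adjusted p = 0.999 in edgeR), and without control library 3 it was 0.46 (adjusted p = 0.709). SALL4 was higher with BHB in pairs 1 and 2 (1.24 and 1.36 times) and lower in pair 3 (0.90 times).

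LIN28B was the most thinly measured gene, with 45, 24 and 21 counts in BHB libraries 1 to 3 and 27, 19 and 21 counts in control libraries 1 to 3. These counts gave 6.06, 3.32 and 3.06 CPM in BHB libraries, against 3.61, 2.52 and 2.47 CPM in control libraries. The exact Poisson interval of 45 counts runs from 32.8 to 60.2 and that of 27 counts from 17.8 to 39.3 (95%, counting error only), and these overlap. LIN28B was higher with BHB in 3 of 3 pairs, at 1.63, 1.29 and 1.22 times the control level in pairs 1 to 3, a pattern found in 14.5% of all genes. The log2 fold change of 0.54 (SE 0.41, 95% interval -0.38 to 1.45, adjusted p = 0.999 in edgeR) was 0.16 without BHB library 1. LIN28A, a paralogue that also represses let-7, was at 14.7 ± 1.04 CPM in BHB and 13.7 ± 2.95 CPM in control libraries (SD, n = 3 each). The log2 fold change of LIN28A was 0.11 (SE 0.23).

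The genes also differed in how their libraries spread. Both libraries of pair 1 had more LIN28B than the other libraries of their group, and both of pair 3 had more SALL4. With treatment in the model, edgeR's test between pairs called 4.12% of all genes and 0 of the 5, with adjusted p = 0.241 for SALL4, 0.312 for NANOG and 0.422 for LIN28B. Of 21 other epiblast and pluripotency genes, 4 differed between pairs: KLF3 (adjusted p = 0.0372), KLF4 (0.0354), the homeobox gene OTX2 (0.0082) and SOX15 (0.0407). Such differences were not particular to this list. The same test called 5 of 15 trophectoderm and 5 of 14 primitive endoderm markers, and 0 in the NODAL, LIN28 and NuRD lists described below. OTX2 was at 67.5, 128 and 121 CPM in BHB libraries 1 to 3 and at 57.6, 124 and 125 CPM in control libraries 1 to 3. The low OTX2 libraries were those of pair 1 in both groups. NANOG did not share this pattern, with its lowest level in BHB library 1 and one of its highest in control library 1.

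The other genes of the epiblast and pluripotency list lay on both sides of 0. Of the 21 tested, 0 passed edgeR's test in either direction, 12 were positive and 9 negative, with a median log2 fold change of 0.04, beside 0.00 over all genes (-0.0050). The 3 with the smallest p, none of which passed, were PRDM14, a factor of pluripotent and germ cells (44.4 ± 13.1 CPM in BHB and 34.7 ± 6.85 CPM in control libraries), KLF4, one of the reprogramming factors (61.9 ± 28.6 CPM in BHB and 46.5 ± 13.0 CPM in control libraries), and ETV5, a target of FGF signalling (5.90 ± 2.33 CPM in BHB and 3.53 ± 3.35 CPM in control libraries; SD, n = 3 each). ZFP42 (REX1) and DPPA3, other markers of pluripotent cells that were named after their values were seen, had log2 fold changes of 0.03 (SE 0.14) and 0.11 (SE 0.14). The summed level of the list was 1781 to 2100 CPM in BHB and 1828 to 2006 CPM in control libraries.

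In the NODAL pathway, through which TDGF1 acts as a co-receptor, 11 of 21 listed genes were tested. None passed in edgeR (0 higher, 0 lower), 7 were positive, and the median log2 fold change was 0.07. The smallest p belonged to DRAP1, a co-repressor that limits NODAL signalling in the mouse, at 15.6, 13.3 and 16.8 CPM in BHB libraries and 11.9, 7.03 and 13.6 CPM in control libraries. SMAD4, the common signal transducer, was at 35.9 ± 3.82 CPM in BHB and 43.2 ± 11.7 CPM in control libraries, and the ligand gene GDF3 at 4.19 ± 0.40 CPM in BHB and 5.67 ± 2.50 CPM in control libraries (SD, n = 3 each). NODAL and its inhibitors LEFTY1 and LEFTY2 had no row and were not analysed here.

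Among 21 tested genes of the LIN28 and let-7 pathway, which holds let-7 processing factors and let-7 targets, 0 passed in edgeR in either direction (12 positive, median log2 fold change 0.03). HMGA1, which encodes an architectural chromatin protein, was at 42.6, 48.5 and 52.7 CPM in BHB libraries, just above 41.5, 37.7 and 41.2 CPM in control libraries, with adjusted p = 0.999. NRAS and the DICER1 partner gene TARBP2 had log2 fold changes of -0.22 (SE 0.15) and -0.25 (SE 0.19). Of 12 tested NuRD genes, which encode subunits of the complexes that bind SALL4, 0 passed in edgeR, 9 were positive and the median log2 fold change was 0.05. MTA2 was at 97.4, 92.1 and 69.0 CPM in BHB libraries and 66.9, 63.1 and 83.6 CPM in control libraries, while the log2 fold change was 0.24 (SE 0.16) for HDAC2 and -0.67 (SE 0.39) for MBD2.

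**Figure D4:**
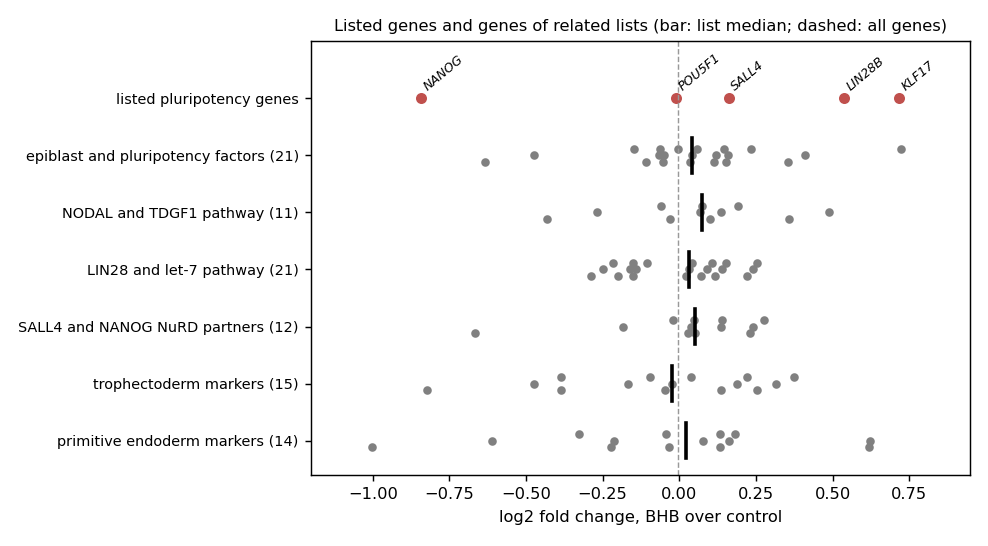
Log2 fold change of BHB over control (horizontal axis) of the 5 genes (red, named) and of the tested genes of 6 related lists (grey points, number tested in brackets), with list medians as black bars and the median of all genes as a dashed line. List medians lie between -0.02 and 0.07. Single list genes lie near or beyond NANOG (-0.84, SE 0.21) and KLF17 (0.72, SE 0.22), with larger SE. Among them are KRT19 at -0.82 (SE 0.37), GATA4 at -1.0 (SE 0.47) and ETV5 at 0.72 (SE 0.61).

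Markers of the other lineages were set beside NANOG and KLF17 in the same libraries. The summed level of 15 trophectoderm markers was 17593, 15500 and 10419 CPM in BHB libraries 1 to 3 and 20369, 19324 and 13427 CPM in control libraries 1 to 3. The sum was lower with BHB in each pair, the keratin gene KRT8 made up most of it, and the groups overlapped. The median log2 fold change of these markers was -0.02, with 7 positive and 8 negative, and 0 passed in edgeR. Without pairing, the smallest p belonged to KRT19 (log2 fold change -0.82, SE 0.37), TFAP2C (0.37, SE 0.18) and KRT18 (-0.39, SE 0.21). With the pair in edgeR's model, 5 of the 15 had an unadjusted p under 0.05, against 8.2% of all genes, and 0 passed after adjustment. These were KRT8, KRT18, KRT19 and the desmosome gene DSP, with negative fold changes, and TFAP2C, with a positive one. KRT8 had the smallest of these p (log2 fold change -0.39, SE 0.077, unadjusted p = 0.00051, adjusted p = 0.209), was lower with BHB in 3 of 3 pairs, and had an adjusted p of 0.0637 in DESeq2's paired fit. KRT8 and DSP were named after their values were seen. The summed level of 14 primitive endoderm markers was 4932, 5183 and 4349 CPM in BHB libraries 1 to 3. It was 5402, 5973 and 5059 CPM in control libraries 1 to 3. This sum was also lower with BHB in each pair, the groups overlapped, and the median log2 fold change was 0.02. With the pair in edgeR's model, 3 of the 14 had an unadjusted p under 0.05, against 8.2% of all genes. These were LRP2, with a negative fold change, and COL4A2 and RSPO3, with positive ones. RSPO3 was named after its values were seen. Of the 14 genes, 0 passed in edgeR, and 1 passed DESeq2's paired test, as lower: LRP2, which encodes the endocytic receptor megalin (edgeR log2 fold change -0.61, SE 0.21). LRP2 averaged 1149 ± 298 CPM in BHB and 1756 ± 343 CPM in control libraries (SD, n = 3 each), a large part of the sum. Its level was 1476, 1081 and 892 CPM in BHB libraries 1 to 3, against 2049, 1840 and 1379 CPM in control libraries 1 to 3. In pair 1 this gap was wider than that of the whole sum, so the sum without LRP2 was not lower there. The largest part of the sum was FN1 (log2 fold change -0.03, SE 0.14), also named after its values were seen. COL4A2, a basement membrane collagen gene, was at 0.62 (SE 0.27) and GATA4 at -1.0 (SE 0.47), neither past edgeR's threshold. Whether the make-up of the pools had a part in the levels of NANOG and KLF17 was not tested.

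Markers of the oocyte and of cells that adhere to embryos, where they could be tested, had low summed levels. Tested markers were 3 of 14 for oocytes, 3 of 12 for cumulus and granulosa cells and 3 of 8 for sperm. Their sums were 12.0 to 19.6 CPM in BHB and 13.3 to 17.7 CPM in control libraries for oocytes. They were 28.2 to 35.3 CPM in BHB and 29.6 to 37.5 CPM in control libraries for cumulus and granulosa cells, and 7.81 to 9.69 CPM in BHB and 4.54 to 13.4 CPM in control libraries for sperm. The groups overlapped in each sum. With so few markers tested, the sums do not measure the amount of such cells. The tested genes were OOSP2, ZP3 and OOEP for oocytes, FSHR, CYP19A1 and STAR for cumulus and granulosa cells, and PRM1, LDHC and TNP2 for sperm, and 0 of these 9 passed in edgeR. OOSP2, an oocyte-secreted protein gene, was at 0.808, 1.52 and 0.73 CPM in BHB libraries and 5.48, 1.46 and 2.11 CPM in control libraries. GDF9, BMP15 and ZP2 had no row and were not analysed here.

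Across the 6 libraries, the genes with the profile most like that of NANOG were sought by the root mean square difference of centred log2 CPM, among 10751 genes with a symbol and a mean log2 CPM of at least 1. The closest were EFNA4 (difference 0.10), ZBTB8B (0.17) and TMEM134 (0.18), beside a spread of 0.50 for NANOG itself. EFNA4, which encodes an ephrin ligand, was at 1.35, 1.52 and 2.33 CPM in BHB libraries 1 to 3 and 2.94, 2.52 and 3.29 CPM in control libraries 1 to 3, so, like NANOG, it was highest in library 3 among the BHB libraries. For KLF17 they were FBXO28 (0.12), ZNF618 (0.13) and CD40 (0.13), beside a spread of 0.42. CD40, which encodes a receptor of the tumour necrosis factor family, was at 7.81, 6.09 and 6.27 CPM in BHB libraries and 3.74, 3.98 and 5.05 CPM in control libraries. With so few libraries and so many genes, close profiles are a description. The closest profiles to the other genes were those of RPS4Y1, HBP1 and TMEM199 for POU5F1 (0.02 to 0.03), DNAAF4, TCEA1 and ARHGAP44 for SALL4 (each 0.07), and GYG2, TP63 and H2AFY2 for LIN28B (0.11 to 0.12).

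**Figure D5:**
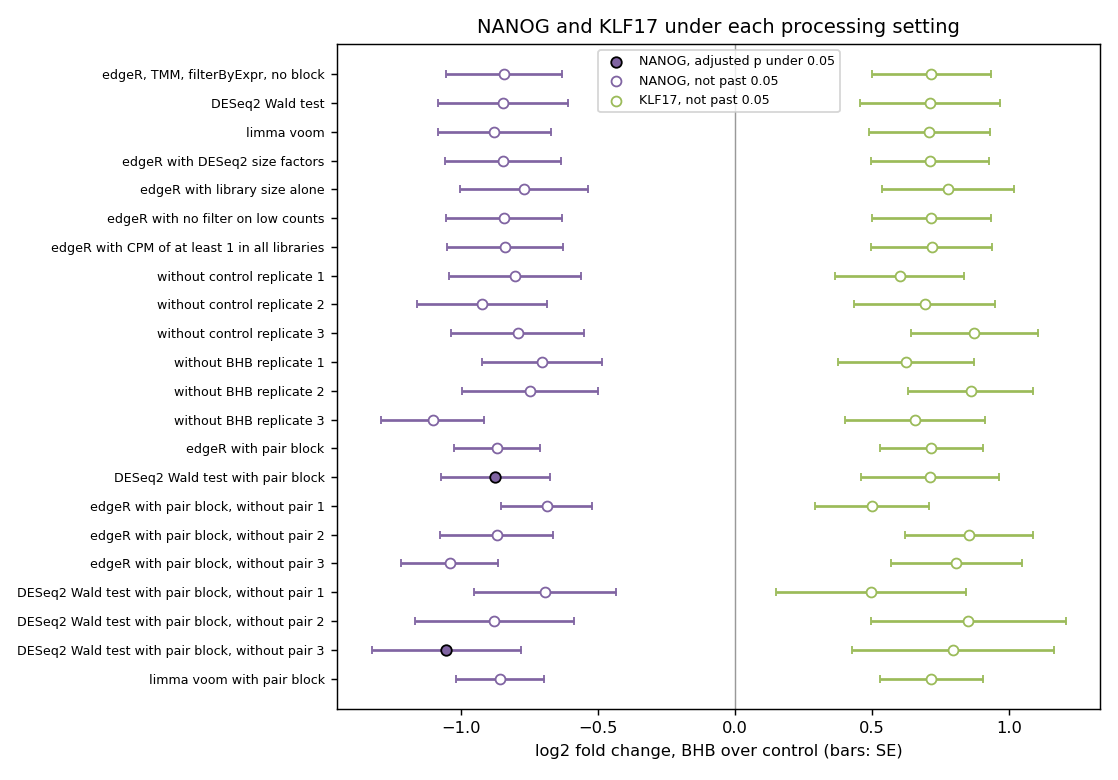
Log2 fold change of BHB over control for NANOG (purple, left) and KLF17 (green, right) under each of 22 processing settings, with SE bars. Filled points have an adjusted p under 0.05: NANOG is filled in DESeq2's Wald test with the pair in the model, with all pairs and without pair 3, and stays between -1.10 and -0.69 in all settings, while KLF17 stays between 0.50 and 0.87 with no filled point.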

How the data were processed

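RNA was measured in 6 libraries from pools of day 7 blastocysts, 3 with BHB and 3 controls, grouped by the labelled treatment and numbered in order of deposit. Per the labels' protocols, stranded libraries of polyadenylated RNA were sequenced as paired ends. The submitters' processing notes name STAR, featureCounts and DESeq2. Versions, genome build, strand setting and handling of multiply mapped reads are not stated, so reads of paralogues and pseudogenes of POU5F1 and NANOG may be shared. The authors deposited whole-number counts per gene and a table of their comparison, which holds a linear signal (the mean normalized count), the log2 fold change of control over BHB and its error, a score (the test statistic) and p-values.

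Counts were normalized by TMM. Filtering by filterByExpr kept 12732 genes and removed 94. Groups were compared over all genes with the quasi-likelihood F test of edgeR 4.0.16 in R 4.3.3, with Benjamini-Hochberg adjustment at 0.05; the SE is the absolute log2 fold change divided by the square root of F. DESeq2 1.42.0 and limma 3.58.1 (voom) were alternatives, with and without the pair as a block. Scripts were tested on simulated data. The pairing was taken from the refit of the deposited p-values; deviations from group means correlated at 0.46, 0.32 and 0.33 within pairs. Whether each pool came from its own embryo batch is not stated, so the spread behind the p-values is that between libraries and may be technical. Intervals of counts cover counting error only.

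The 6 genes and the related lists were chosen with earlier results of these data known. All of the 6 with a row were named. From each related list the 3 genes with the smallest p, and any past the threshold, were named, as were the 3 genes closest in profile to each of the 5. The fits within DESeq2 without a pair, the paired voom fit and the test between pairs were added after the data were seen. No protein or promoter sequence was used here.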

Additional observations from a re-analysis of the deposited data

How the results depend on the processing

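The direction of NANOG, KLF17, SALL4 and LIN28B was kept under all 21 alternatives. Leaving out 1 library gave log2 fold changes of -1.10 to -0.70 for NANOG, 0.60 to 0.87 for KLF17, 0.02 to 0.46 for SALL4, 0.16 to 0.74 for LIN28B and -0.0926 to 0.0433 for POU5F1. NANOG passed only with DESeq2's replicate block, with all pairs (-0.87) and without pair 3 (-1.05). POU5F1, near 0 throughout, turned positive with library size alone (0.0560) and without control library 1 (0.0346), BHB library 1 (0.0174) or BHB library 3 (0.0433). It also did so with the block in edgeR without pair 1 (0.0532) or pair 3 (0.0171). With the block in DESeq2 it did so without pair 1 (0.0481) or pair 3 (0.0045). The cause was not tested. The block changed no other call of the 5 genes.

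Over all genes, 0 were called in edgeR and 0 or 1 without each library in turn. DESeq2 called 6, and 35 with the replicate block. The block in edgeR called 0 with all pairs and 4, 16 and 4 without pairs 1, 2 and 3; in DESeq2 it called 10, 10 and 15. For LIN28B, DESeq2 with the block gave no adjusted p with all pairs or without pair 1 or pair 3. Without pair 2 it gave an adjusted p of 0.9998. Fits without 1 library keep its partner and so mix pair with treatment. Depth limits LIN28B most, at 19 to 45 counts per library.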
